A study of Mus musculus with 2 samples.

Results

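Microglia, the resident macrophages of the brain, were examined in mouse brains carrying tumours of the GL261 line, a mouse glioma line grown from implanted cells. They were selected on measured transcripts. A cell was kept with at least 500 mouse genes and at most 10% mitochondrial counts, and it was called a microglial cell when Tmem119, P2ry12 and Sall1 together gave at least 3 unique molecular identifiers (UMIs, each a counted transcript) and markers of plasmacytoid, tumour macrophage, monocyte, T cell and tumour cells stayed below low limits. This left 536 microglial cells of 9685 kept cells. The study holds 2 droplet libraries, 1 per genotype, each from dissociated brain on day 24. The first carries the genotype label C57BlL6 WT and is called the WT-labelled library. The second carries the genotype label Cacna1H-/- and is called the KO-labelled library. Cacna1h encodes the pore subunit of the low-voltage-activated calcium channel Cav3.2. GL261 cells were shared by both groups, and the labels give neither the number of animals in a library nor which stretch of Cacna1h was deleted.

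The microglial cells held 1259345 UMIs in the WT-labelled library and 6520458 in the KO-labelled library, with a median depth per cell of 10142.5 UMIs in the first and 13313.5 in the second. The libraries shared 21 barcodes in all, 7 among kept cells and 0 among microglia. Cacna1h went against the labels: kept cells held 13 Cacna1h UMIs in the WT-labelled library (0.250 CPM, counts scaled to 1e6 mouse UMIs, exact Poisson 95% interval 0.133 to 0.427) and 168 in the KO-labelled library (1.67 CPM, 1.42 to 1.94). Counts from the 3′ end of a transcript check a deletion only if they fall inside it, so the libraries are named by their labels throughout. The KO-labelled library held microglia with Xist UMIs (288 cells) and microglia with Y-linked but without Xist UMIs (104 cells), so it held cells of both sexes. The WT-labelled library held 87 cells of the second kind and 0 with Xist. With 1 library per group no test of the groups was possible, every interval covers counting error alone, and genotype, sex, animal and library cannot be told apart.

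As background, microglia are long-lived macrophages that enter the brain from the yolk sac, depend on signalling through the CSF1 receptor, and keep their identity under TGF-beta and the transcription factor Sall1. At rest they express a homeostatic programme that includes the fractalkine receptor Cx3cr1 and the purine receptor P2ry12. Near tumours, plaques and lesions they lower this programme and raise Apoe, lysosomal genes and, under interferon-gamma, the class II molecules of the major histocompatibility complex (MHC), which present peptides to CD4+ T cells.

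Once macrophage-like members were set aside, 6 of 8 MHC class II genes were at least 1.5-fold higher in the KO-labelled library, against 5.5% of all measured genes. Over all members 0 of 8 passed this limit. Promoters of this group are shown first, among them that of H2-DMb1, which passed in neither set. Transcription of class II genes depends on the co-activator Ciita, which is recruited by factors bound to the conserved X and Y boxes upstream of each gene, the Y box being bound by NF-Y. The letters TGATTGG, the reverse of an NF-Y CCAAT element, were searched on both strands in the RefSeq promoters (build GRCm38.p6, 250 bases before to 50 bases after each start). They occurred in 2568 of 32851 promoters (7.82%) and in those of H2-Aa, H2-Eb1, H2-DMb1 and H2-DMb2, all on chromosome 17, but in neither start of H2-DMa. H2-Ab1, Cd74 and Ciita, the other 3 genes of the class II list, were not searched here. The match is a description of letters and not a measurement of binding. The promoters of both chains of classical class II molecules (H2-Aa, alpha chain, chr17:34287774-34288073, minus strand, and H2-Eb1, beta chain, chr17:34305617-34305916, plus strand) and of a chain of the peptide-exchange factor H2-DM (H2-DMb1, chr17:34152941-34153240, plus strand) follow, 5′ to 3′ along the gene, with the TGATTGG match in capitals.
H2-Aa: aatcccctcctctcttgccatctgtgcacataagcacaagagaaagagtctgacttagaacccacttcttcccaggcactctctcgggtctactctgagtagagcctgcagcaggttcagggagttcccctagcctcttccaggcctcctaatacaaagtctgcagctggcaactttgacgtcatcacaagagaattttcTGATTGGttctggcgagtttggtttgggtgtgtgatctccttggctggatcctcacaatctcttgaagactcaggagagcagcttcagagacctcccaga
H2-Eb1: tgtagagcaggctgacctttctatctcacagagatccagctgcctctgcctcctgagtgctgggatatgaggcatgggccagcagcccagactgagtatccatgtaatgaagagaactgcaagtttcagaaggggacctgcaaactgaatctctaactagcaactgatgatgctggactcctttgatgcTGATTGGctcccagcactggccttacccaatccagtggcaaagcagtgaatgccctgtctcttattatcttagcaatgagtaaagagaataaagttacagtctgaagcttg
H2-DMb1: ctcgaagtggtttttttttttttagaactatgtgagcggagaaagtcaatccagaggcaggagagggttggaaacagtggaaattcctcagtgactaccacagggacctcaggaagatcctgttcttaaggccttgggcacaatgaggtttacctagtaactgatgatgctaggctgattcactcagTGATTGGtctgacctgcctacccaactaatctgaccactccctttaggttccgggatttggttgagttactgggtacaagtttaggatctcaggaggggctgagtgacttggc

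The label microglia was checked against markers the selection did not use. UMIs of Cx3cr1 were found in 86.3% of microglia of the WT-labelled library and in 97.7% of those of the KO-labelled library. T cells, taken as cells with 3 or more Cd3e and Cd3d UMIs, had them in 11.4% and 18.9%, at median depths of 8370 and 9285 UMIs. In these T cells H2-Aa and Cd74 UMIs stood at 299 and 802 CPM in the WT-labelled library and at 321 and 909 CPM in the KO-labelled library. The T cell level is given as a background, and its source was not tested. Cells at the selection limit were less clear. Those with exactly 3 UMIs of the rule genes (13 and 34 cells) had Cx3cr1 at 169 and 343 CPM, against 248 and 179 CPM in the excluded cells with 2 UMIs (36 and 54 cells). Cells with 10 or more (49 and 281 cells) had Cx3cr1 at 1127 and 1345 CPM. Lyz2, a lysozyme of monocyte-derived macrophages, ran the other way, at 4023 and 2766 CPM in cells with 3 UMIs and at 428 and 465 CPM in cells with 10 or more.

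A minority of the members therefore resembled monocyte-derived or border macrophages. In the WT-labelled library 24 of 102 members (23.5%, exact binomial 95% interval 15.7 to 33.0) and in the KO-labelled library 72 of 434 (16.6%, 13.2 to 20.4) carried 5 or more UMIs of 14 monocyte and border macrophage markers such as Ccr2, Mrc1 and Ms4a7. Members with 10 or more such UMIs had a median Cx3cr1 of 161 and 268 CPM, a median Lyz2 of 2822 and 3952 CPM and a median of 4 UMIs of the rule genes. Members with 0 to 2 had a median Cx3cr1 of 1057 and 1248 CPM and a median Lyz2 of 248 and 200 CPM. Many comparisons are accordingly given both for all members and for the 78 and 362 members below the limit of 5, here called marker-clean microglia. Others are given for a single set. That limit was chosen after the data were seen.

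Microglia made up 3.28% of kept cells in the WT-labelled library (102 of 3110, 2.68 to 3.97) and 6.60% in the KO-labelled library (434 of 6575, 6.01 to 7.23), a ratio of 2.01 (1.62 to 2.52). Marker-clean microglia made up 2.51% and 5.51%, a ratio of 2.20 (1.71 to 2.84). Among cells with Y-linked but without Xist UMIs the shares were 4.19% (87 of 2077) and 11.2% (104 of 928), a ratio of 2.68 (1.99 to 3.60). Within the KO-labelled library, microglia were 7.31% of the cells with Xist UMIs (6.52 to 8.17), so the intervals of the 2 kinds of cell of 1 library did not meet. The ratio depended on the exclusion of cells with more than 1 Sox2 and Met UMI. That clause removed 64 of 166 candidates in the WT-labelled library and 31 of 465 in the KO-labelled library, and without it the shares were 5.34% and 7.07%, a ratio of 1.32 (1.11 to 1.59). The 64 cells removed in the WT-labelled library had a median of 43116 UMIs, carried Tmem119 at 325 CPM beside Sall1 at 2.84 CPM, and had C1qa at 155 CPM against 5764 CPM in the members. The 31 removed in the KO-labelled library had C1qa at 2694 CPM.

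Compared with 3 other macrophage sets of the same tumours, marked by Mmp12, Ly6c2 or Arg1 and by few UMIs of the rule genes, microglia stood apart in the same way in both libraries. The 30 homeostatic genes summed to 24299 CPM (WT-labelled) and 23101 CPM (KO-labelled) in marker-clean microglia, and the 3 macrophage sets ranged from 4358 to 5857 CPM over both libraries. Complement genes summed to 17952 and 20214 CPM against 6514 to 13865 CPM, and genes of the TGF-beta axis to 3419 and 3218 CPM against 1441 to 1731 CPM. MHC class II genes ran the other way, at 8141 and 19375 CPM in marker-clean microglia against 31580 to 51538 CPM in the macrophage sets. These sets were cut on UMIs of microglial and macrophage genes, so the levels describe them and carry no test.

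**Figure D1:**
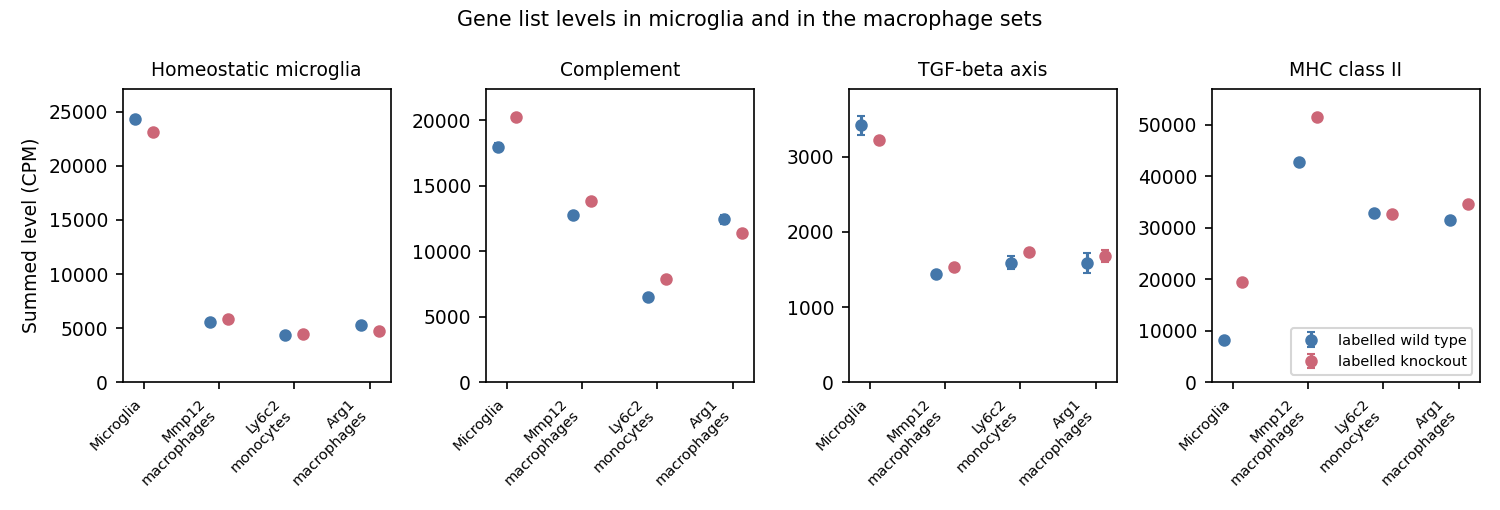
Summed level in CPM (vertical axes, linear from 0) of 4 gene lists in marker-clean microglia and in macrophages marked by Mmp12, Ly6c2 or Arg1, for the WT-labelled library (blue) and the KO-labelled library (red), with exact Poisson 95% intervals. Homeostatic, complement and TGF-beta genes are highest in microglia in both libraries, and the MHC class II level of microglia is 8141 CPM in the WT-labelled library and 19375 CPM in the KO-labelled library.

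Genes with at least 100 CPM in microglia that exceeded all 3 macrophage sets by the widest margins are described next. Csmd3, a large membrane protein with complement-control domains, stood at 273 and 448 CPM in microglia and at no more than 3.38 CPM in any macrophage set. Sparc, a secreted matrix protein, stood at 520 and 500 CPM against at most 5.22 CPM. Siglech, a lectin of microglia and plasmacytoid dendritic cells, stood at 285 and 266 CPM against at most 4.48 CPM, and Crybb1, a crystallin, at 115 and 136 CPM against at most 2.24 CPM. Tafa1, Atp8a2, Slco2b1, Fat3, Sdk1 and Serpine2 completed the 10 genes named by this measure. Within the KO-labelled library Tafa1 was uneven, at 268 CPM in marker-clean microglia with Xist UMIs and 3.68 CPM (3 UMIs) in those with Y-linked UMIs. In the opposite direction Ccr1, a receptor of inflammatory chemokines, stood at 21.6 and 10.4 CPM in marker-clean microglia against 274 to 350 CPM in the macrophage sets, and Clec4n, the fungal receptor dectin-2, at 2.40 and 4.20 CPM against 213 to 459 CPM.

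Within the microglia the cells spread along a range that ran from high homeostatic expression with little Apoe to low homeostatic expression with much Apoe. To compare cells at equal depth, each cell was thinned to 3000 UMIs, which left out 2 cells per library and kept 76 and 360 marker-clean cells. Thinned Apoe ran from 0 to 112 UMIs per cell (median 3) in the WT-labelled library and from 0 to 197 (median 8) in the KO-labelled library. Cells with at most 2 Apoe UMIs numbered 37 of 76 (48.7%, 37.0 to 60.4) and 135 of 360 (37.5%, 32.5 to 42.7). Cells with 10 or more numbered 22 (28.9%, 19.1 to 40.5) and 164 (45.6%, 40.3 to 50.9), and the intervals of this share meet. The limits at 2 and 10 were set after the data were seen, they cut a continuous range, and 17 and 61 cells lay between them.

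Along this range the homeostatic genes fell from a median of 137 UMIs per 3000 in cells with little Apoe to 56.5 in cells with much Apoe in the WT-labelled library, and from 157 to 42.0 in the KO-labelled library. P2ry12 stood at 982 and 318 CPM in the 2 ranges in the WT-labelled library and at 1862 and 388 CPM in the KO-labelled library. Siglech stood at 1099 and 167 CPM, and at 1193 and 130 CPM. Of the homeostatic genes with at least 20 thinned UMIs, 17 of 27 in the WT-labelled library and 28 of 30 in the KO-labelled library were at least 1.5-fold lower in cells with much Apoe, and 0 were higher in either. Over every gene with 20 such UMIs, 33.4% were lower and 20.4% higher in the WT-labelled library, and 32.9% and 19.5% in the KO-labelled library.

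Disease-associated genes, the set that microglia raise around plaques and demyelinated tissue, moved with Apoe: 9 of 14 were at least 1.5-fold higher and 1 lower in the WT-labelled library, and 14 of 21 higher and 1 lower in the KO-labelled library. Apoe itself belongs to this list and was used to split the cells, so its own rise was fixed in advance. Cst7, an inhibitor of lysosomal proteases, stood at 18.02 and 727 CPM in cells with little and much Apoe in the WT-labelled library and at 24.7 and 368 CPM in the KO-labelled library. Cd63, a tetraspanin of late endosomes, stood at 441 and 1697 CPM and at 289 and 1319 CPM. Cxcl9, a T cell attractant induced by interferon-gamma, stood at 36.0 and 409 CPM (4 and 27 UMIs) and at 32.1 and 1112 CPM. Il1b, which encodes an inflammatory cytokine, stood at 9.01 and 197 CPM (1 and 13 UMIs) and at 44.4 and 756 CPM.

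Immediate early genes went with the homeostatic end. Of those with 20 thinned UMIs, 13 of 18 in the WT-labelled library and 15 of 20 in the KO-labelled library were at least 1.5-fold lower in cells with much Apoe, with Jun at 2054 and 591 CPM and at 2178 and 545 CPM. Such genes are known to be induced in microglia by enzymatic dissociation, and that part was not tested. Depth moved along the same range: before thinning, cells with little Apoe had median depths of 6988 and 6960 UMIs and cells with much Apoe 13370 and 16109.5 UMIs.

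**Figure D2:**
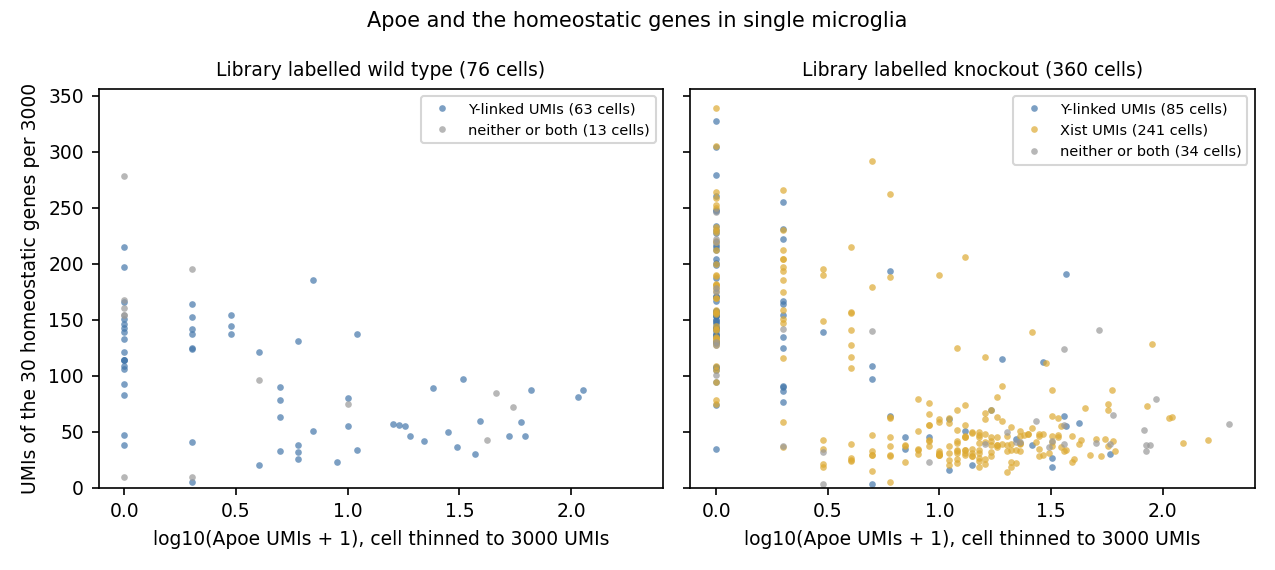
Each point is 1 marker-clean microglial cell thinned to 3000 UMIs, with log10(Apoe UMIs + 1) on the horizontal axis and the summed UMIs of the 30 homeostatic genes on the vertical axis, for the WT-labelled library (left, 76 cells) and the KO-labelled library (right, 360 cells). Colours separate cells with Y-linked UMIs, with Xist UMIs and with neither or both, and the median of the homeostatic sum goes from 137 to 56.5 (left) and from 157 to 42.0 (right) between the lowest and highest Apoe ranges.

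The libraries were then compared gene by gene over the summed UMIs of all members. A gene was measured with at least 100 UMIs over both libraries and called by size alone, at a difference of at least 1.5-fold. Of 7913 measured genes, 394 (4.98%) were higher and 501 (6.33%) lower in the KO-labelled library. With the Sox2 and Met clause left out the counts were 2399 and 3071. Among marker-clean microglia 388 of 7055 (5.5%) were higher and 431 (6.11%) lower. Those shares are the background for the lists below, and the median log2 ratio over all measured genes was -0.05. The KO-labelled library mixes cells with Xist and with Y-linked UMIs. Several lists are also given for marker-clean cells with Y-linked UMIs of both libraries, called Y cells, a comparison added after the data were seen. Between those, 286 of 2952 measured genes (9.69%) were higher and 301 (10.2%) lower in the KO-labelled library.

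No gene of the homeostatic list passed the limit over all members. Of 30 homeostatic genes, all measured, 0 were higher and 0 lower by 1.5-fold, with a median log2 ratio of 0.07. In Y cells 11 of 30 were higher in the KO-labelled library and 0 lower (median 0.45). Cx3cr1 stood at 750 and 1048 CPM (log2 ratio 0.48, exact 95% counting interval 0.39 to 0.58) and Tgfbr1, the type I receptor for TGF-beta, at 927 and 1139 CPM. The widest differences in the list were P2ry13, a purine receptor (log2 ratio 0.55), and Ltc4s, which makes leukotriene C4 (-0.42). Of 15 microglial transcription factors 0 passed in either direction, with Mef2c at 721 and 794 CPM. Of the 10 measured genes of the TGF-beta axis and the 6 of the CSF1 receptor axis, 0 passed, with Csf1r, the receptor microglia need to survive, at 818 and 859 CPM. The rule genes themselves, which chose the cells, stood at 367 and 514 CPM (P2ry12), 405 and 363 CPM (Tmem119) and 118 and 107 CPM (Sall1). In marker-clean microglia 3 genes of these lists passed the limit, each lower in the KO-labelled library: Ltc4s (log2 ratio -0.65), the transcription factor Maf (-0.65) and the growth factor Csf1 (-0.70). In Y cells all 3 stayed under the limit, with Ltc4s at 269 and 246 CPM, Maf at 245 and 305 CPM and Csf1 at 326 and 330 CPM. Marker-clean cells with Xist UMIs had 141, 132 and 166 CPM of these genes.

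The MHC class II result depended on the macrophage-like members. Over all members 0 of 8 genes passed the limit (median log2 ratio 0.19). In marker-clean microglia 6 of 8 were at least 1.5-fold higher in the KO-labelled library and 0 lower (median 1.20), against a background of 5.5% higher. Cd74, the invariant chain that guides class II molecules through the cell, stood at 3972 CPM in the WT-labelled library and 10383 CPM in the KO-labelled library. H2-Aa stood at 1213 and 2818 CPM, H2-Ab1 at 1166 and 2829 CPM and H2-Eb1 at 1122 and 2362 CPM. Ciita, the co-activator of the class II promoters printed above, stood at 33.7 and 76.0 CPM, and H2-DMb2 at 12.02 and 35.4 CPM. H2-DMa and H2-DMb1 stayed under the limit. The macrophage-like members, 24 and 72 cells, carried class II genes at high levels in both libraries (median H2-Aa 7227 and 7115 CPM in those with 10 or more macrophage marker UMIs) and their shares, 23.5% and 16.6% of members, have intervals that overlap.

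The class II median was higher in the KO-labelled library in each Apoe range. Per 3000 UMIs, cells with little Apoe had a median of 3 class II UMIs in the WT-labelled library and 13 in the KO-labelled library. Cells with 3 to 9 Apoe UMIs had 11 and 39, and cells with much Apoe had 26 and 61.5. Over all marker-clean cells the median was 9 (quartiles 3 and 27.3) in the WT-labelled library and 42.5 (quartiles 14 and 71.3) in the KO-labelled library, and the single cells overlapped widely. T cells thinned to the same depth had medians of 0 and 1 class II UMIs and means of 3.25 and 3.66. Their upper quartiles were 1 and 2 and their highest values 138 and 151. In the WT-labelled library the median of 3 in microglia with little Apoe lay below the T cell mean and above the T cell median. In Y cells 4 of 6 measured class II genes were higher in the KO-labelled library and 0 lower (median log2 ratio 1.04).

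**Figure D3:**
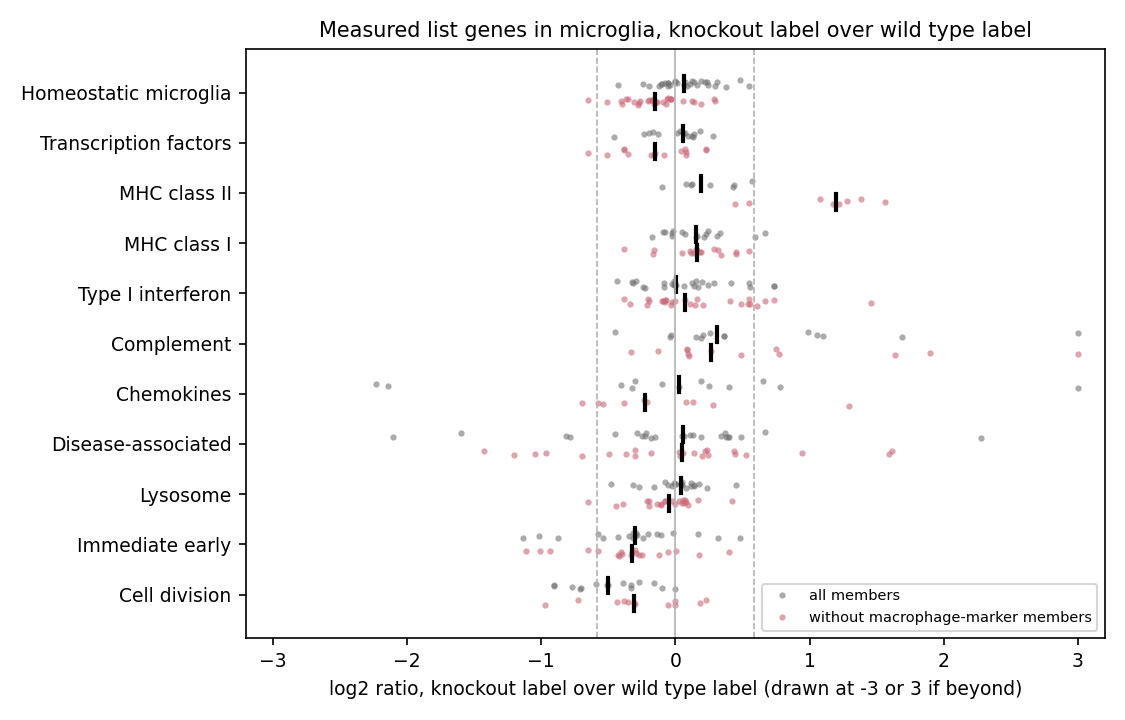
Log2 ratio of the KO-labelled library over the WT-labelled library (horizontal axis, linear, with dashed lines at 1.5-fold and points beyond 3 drawn at the edge) for the measured genes of 11 lists in all members (grey) and in marker-clean microglia (red), with list medians as black bars. The MHC class II median moves from 0.19 to 1.20 when members with macrophage markers are set aside, and the homeostatic median goes from 0.07 to -0.15.

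**Figure D4:**
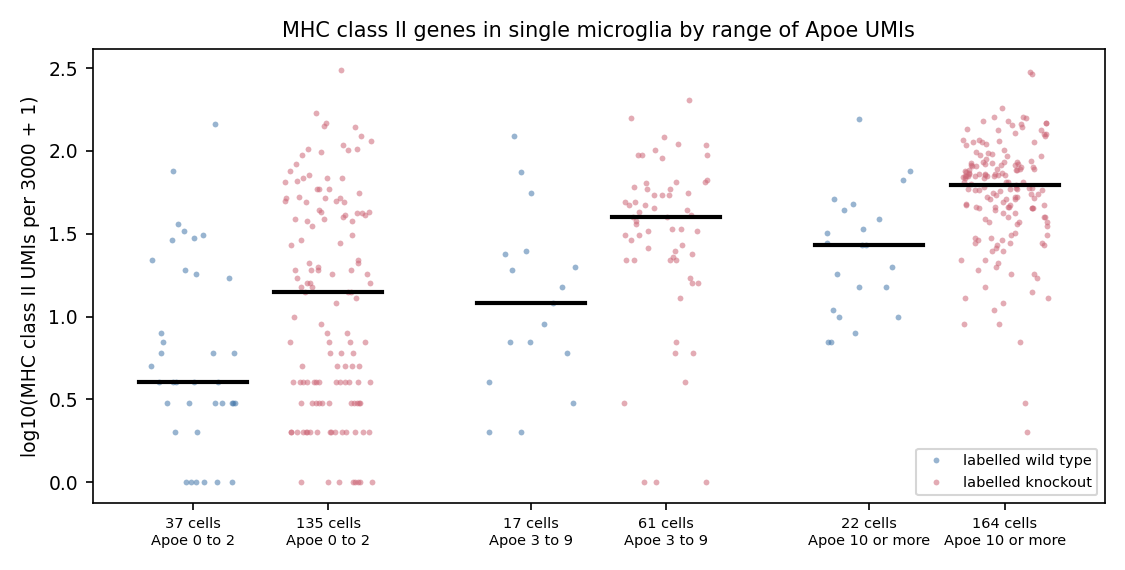
Summed MHC class II UMIs of single marker-clean microglia thinned to 3000 UMIs, as log10(UMIs + 1) on the vertical axis, in 3 ranges of Apoe UMIs, for the WT-labelled library (blue) and the KO-labelled library (red), with points spread sideways at random and medians as black bars. The medians are 3, 11 and 26 UMIs in the WT-labelled library and 13, 39 and 61.5 in the KO-labelled library.

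Of 27 measured type I interferon genes, 2 were higher in all members and 4 in marker-clean microglia, with 0 lower in either. Y cells ran the other way, with 0 of 20 higher and 13 lower in the KO-labelled library (median log2 ratio -0.68) and sums of 5367 and 3669 CPM. Ifi27l2a stood at 481 and 800 CPM in marker-clean microglia, Ifi44 at 12.02 and 33.0 CPM and the antiviral enzyme Rsad2 at 39.7 and 60.4 CPM. In Y cells Ifi27l2a stood at 449 and 343 CPM and Rsad2 at 45.6 and 18.4 CPM, and cells with Xist UMIs had 873 and 72.6 CPM of these genes. Gbp2, a guanylate-binding protein induced by interferon-gamma, stood at 121 and 255 CPM over all members (log2 ratio 1.08, 0.84 to 1.33). Of 17 MHC class I genes 2 were higher over all members, H2-Q4 and H2-Q7, and 0 in marker-clean microglia, where B2m, the light chain shared by class I molecules, stood at 3543 and 3834 CPM.

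Complement, the cascade that tags cells and synapses for removal, had 5 of 14 genes higher and 0 lower over all members, and 5 of 13 higher in marker-clean microglia. C3, the central component, stood at 41.3 and 133 CPM over all members (52 and 867 UMIs, log2 ratio 1.69, 1.28 to 2.12) and at 27.7 and 103 CPM in marker-clean cells. C4b, which acts upstream of C3, stood at 96.9 and 208 CPM (122 and 1354 UMIs). In Y cells 2 of 10 measured complement genes were higher and 2 lower in the KO-labelled library (median log2 ratio 0.12). There C3 stood at 29.9 and 39.2 CPM and C4b at 151 and 169 CPM, both under the limit. Marker-clean cells with Xist UMIs had 116 and 258 CPM of these 2 genes. Serping1, the inhibitor of the first component, had 2 and 136 UMIs (log2 ratio 3.72, 1.83 to 6.78). The subunits of C1q, which start the classical pathway, stayed under the limit, with C1qa at 5764 and 7421 CPM.

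Among cytokines Il1b differed in both sets of members. It stood at 421 and 897 CPM over all members (log2 ratio 1.09, 0.96 to 1.22) and at 191 and 688 CPM in marker-clean microglia (log2 ratio 1.85). Il1b UMIs in T cells of the same libraries stood at 52.1 and 110 CPM. Il1a, the related alarmin, stood at 250 and 311 CPM. Among 13 measured chemokines, 3 were higher and 2 lower over all members. Cxcl9 stood at 557 and 875 CPM, and at 347 and 850 CPM in marker-clean cells. In Y cells it stood at 384 and 451 CPM, under the limit, and in cells with Xist UMIs at 936 CPM. Ccl8, a monocyte attractant, had 4 and 442 UMIs over all members, but 64.3% of the UMIs in the KO-labelled library lay in 3 cells and the marker-clean level was 3.61 and 8.004 CPM. Cxcl2, a neutrophil attractant, stood at 128 and 27.1 CPM over all members and at 6.01 and 2.801 CPM in marker-clean cells. Cd40, a receptor for T cell help, stood at 19.1 and 61.3 CPM (log2 ratio 1.69, 1.09 to 2.35). In Y cells Cd40 stood at 18.5 and 22.1 CPM, also under the limit, and in cells with Xist UMIs at 59.0 CPM.

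Of 24 measured disease-associated genes 2 were higher and 4 lower, with a median log2 ratio of 0.05. In Y cells 0 of 18 were higher and 6 lower. In marker-clean microglia Spp1, the secreted protein osteopontin, stood at 33.7 and 103 CPM, Lgals3, a galectin, at 202 and 389 CPM, and Lpl, lipoprotein lipase, at 39.7 and 17.2 CPM. Gpnmb stood at 160 and 37.1 CPM over all members, with 88.1% of its UMIs in the WT-labelled library in 3 cells. Apoe, the main lipid carrier of the brain, stood at 4384 and 5938 CPM in marker-clean microglia. In Y cells Lgals3 stood at 221 and 69.9 CPM, Spp1 at 34.2 and 33.1 CPM and Apoe at 4319 and 3563 CPM, and cells with Xist UMIs had 460 CPM, 113 CPM and 6028 CPM of these genes. Of 22 lysosomal and phagocytic genes and 5 Fc receptor genes, 0 passed in either direction over all members, with the protease Ctss at 4216 and 5765 CPM. Of 9 measured sterol synthesis genes 3 were lower over all members, and 0 of 5 passed in marker-clean microglia. Apoc1, a small apolipoprotein, had 12 and 244 UMIs (log2 ratio 1.97, 1.14 to 2.95), and Plin2, which coats lipid droplets, stood at 191 and 105 CPM.

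Of 20 immediate early genes 3 were lower and 0 higher in the KO-labelled library, with a median log2 ratio of -0.30. In Y cells 1 was lower and 3 higher (median 0.16), with sums of 8021 and 9397 CPM, and the sum was 5215 CPM in cells with Xist UMIs. Fos stood at 804 and 438 CPM (log2 ratio -0.88, -0.98 to -0.77), Fosb at 337 and 167 CPM and Dusp1, a phosphatase that ends such signalling, at 316 and 144 CPM. Of 15 measured cell division genes 6 were lower and 0 higher over all members, and 2 of 12 lower in marker-clean cells. Mki67 stood at 99.3 and 60.6 CPM, with 72.0% of its UMIs in the WT-labelled library in 3 cells. Counted as cells, those with a thinned Mki67 or Top2a UMI were 9 of 76 (11.8%, 5.56 to 21.3) and 45 of 360 (12.5%, 9.27 to 16.4), with overlapping intervals.

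Of 17 measured purine receptor and ion channel genes 1 was higher, the calcium channel pore gene Cacna1a at 19.1 and 33.1 CPM, with 62.5% of its UMIs in the WT-labelled library in 3 cells. Cacna1h itself had 0 UMIs in microglia in the WT-labelled library and 10 in the KO-labelled library (1.53 CPM). The limit that a count of 0 allows in the WT-labelled library, 3 counts, is 2.38 CPM, so a difference in microglia was not detectable at this depth.

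The genes with the widest differences that also cleared a screen against RNA of other cell types are given here. Ifi202b, of the interferon-inducible Ifi200 family of DNA-binding proteins, had 0 and 1081 UMIs, at least 69.6-fold higher for the KO-labelled library with the floor of 3 counts over the library. In T cells of that library it stood at 19.5 CPM. Its relatives Ifi213 (121 and 36 UMIs) and Ifi206 (68 and 115 UMIs, 54.0 and 17.6 CPM) were lower. Members of this family resemble each other closely, so the split of counts among them is uncertain. Slamf8, a receptor of myeloid cells, stood at 42.9 and 127 CPM, and Slamf7 at 131 and 33.7 CPM. Tgm2, a protein-crosslinking enzyme, stood at 163 and 380 CPM and Aoah, which inactivates lipopolysaccharide, at 50.8 and 124 CPM. Lst1 stood at 125 and 267 CPM, and the splicing factor Rbfox1 at 118 and 283 CPM. F11r, a junctional adhesion molecule, stood at 233 and 81.1 CPM, with UMIs in 80.4% and 59.0% of cells.

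Several of these differences rested on few cells or on 1 kind of cell. Fn1, fibronectin, stood at 135 and 347 CPM and Xdh, xanthine dehydrogenase, at 20.6 and 55.2 CPM over all members. Over all members with Y-linked UMIs, macrophage-like ones included, their log2 ratios were -0.39 and -0.29. In Y cells the fall was wider, with Fn1 at 187 and 19.6 CPM (131 and 16 UMIs) and Xdh at 14.2 and 4.90 CPM (10 and 4 UMIs). Marker-clean cells with Xist UMIs had 461 and 60.8 CPM of these 2 genes. In Y cells Tgm2 stood at 169 and 131 CPM and Aoah at 35.6 and 28.2 CPM, and in cells with Xist UMIs at 409 and 90.9 CPM. Of the UMIs in the WT-labelled library, 3 cells held 98.1% for Syt4, 85.1% for Pf4 and 73.0% for Colec12. With the Sox2 and Met clause left out, the log2 ratio of Colec12 was 0.33 and that of F11r 0.090. Gpr141, Rab7b, Ccl6 and Tpm1, also lower in the KO-labelled library, had log2 ratios of -2.17, -1.51, -1.60 and -1.84 over all members. In marker-clean microglia Ccl6 and Tpm1 had log2 ratios of -0.97 and -1.94. There Gpr141 stood at 4.81 and 1.60 CPM and Rab7b at 13.2 and 5.40 CPM, on too few UMIs to be measured.

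Markers of other cells in these members moved too. Natural killer cell markers summed to 571 and 33.3 CPM over all members and to 19.2 and 28.4 CPM in marker-clean microglia. Monocyte markers summed to 206 and 63.8 CPM and to 22.8 and 25.6 CPM, and tumour markers to 160 and 49.8 CPM and to 117 and 59.8 CPM. Oligodendrocyte markers ran the other way, at 134 and 354 CPM over all members and 127 and 428 CPM in marker-clean microglia. Mal and Mobp had 0 UMIs in the WT-labelled library, and 3 cells held 96.9% of the Mal UMIs of the KO-labelled library. B cell markers summed to 68.3 and 220 CPM over all members, with Jchain and Cd79a at 0 UMIs in the WT-labelled library and 96.5% of the Jchain UMIs of the other library in 3 cells, and to 81.8 and 83.8 CPM in marker-clean microglia. The part of these cells' RNA in the differences above was not tested beyond setting aside the macrophage-like members.

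The 2 kinds of cell within the KO-labelled library were compared next. Among marker-clean microglia 14.6% of 6344 genes passed the 1.5-fold limit as higher and 14.5% as lower in the 242 cells with Xist UMIs against the 85 cells with Y-linked UMIs, on 3883470 and 815928 UMIs. Median depth per cell was 14772 UMIs in the cells with Xist UMIs and 7514 UMIs in those with Y-linked UMIs. The part of depth in these differences was not tested. Of 30 homeostatic genes 23 were lower and 0 higher in the cells with Xist UMIs (median log2 ratio -0.74). P2ry12, a rule gene whose level depends on the selection, stood at 1199 CPM in cells with Y-linked UMIs and 505 CPM in cells with Xist UMIs (log2 ratio -1.25, -1.36 to -1.14). It stood at 507 CPM in the 64 cells with Y-linked UMIs in the WT-labelled library. Siglech stood at 744, 247 and 399 CPM and Gpr34, a lysophospholipid receptor, at 540.5, 163 and 261 CPM in the same order. The homeostatic sum in the WT-labelled library, 24064 CPM, thus lay between the 37350 and 20002 CPM of the 2 kinds of cell of the other library.

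Interferon, cell division and glycolysis genes ran the other way. Of 27 type I interferon genes 20 were higher and 0 lower in cells with Xist UMIs (median log2 ratio 0.92), with Isg15 at 152 CPM in cells with Y-linked UMIs, 478 CPM in cells with Xist UMIs and 308 CPM in the WT-labelled library. All 12 measured cell division genes were higher, with Mki67 at 4.90, 81.1 and 127 CPM, and 12 of 16 glycolysis and hypoxia genes were higher and 1 lower, with Gapdh at 532, 1203 and 1048 CPM. Immediate early genes were lower in 14 of 20 cases and higher in 1. Cells with a thinned Mki67 or Top2a UMI were 3 of 85 (3.53%, 0.734 to 9.97) among those with Y-linked UMIs, 38 of 241 (15.8%, 11.4 to 20.99) among those with Xist UMIs and 9 of 63 (14.3%, 6.75 to 25.4) in the WT-labelled library.

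The Apoe ranges were unequally filled in the 3 sets. Cells with at most 2 thinned Apoe UMIs were 61 of 85 (71.8%, 61.0 to 81.0) among those with Y-linked UMIs in the KO-labelled library, 62 of 241 (25.7%, 20.3 to 31.7) among those with Xist UMIs, and 29 of 63 (46.0%, 33.4 to 59.1) in the WT-labelled library. Inside this range the medians of the homeostatic sum, 153, 172 and 133 UMIs per 3000, lay closer together than the summed levels of the 3 sets.

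MHC class II genes summed to 8656 CPM in cells with Y-linked UMIs in the WT-labelled library (8440 to 8876), to 18377 CPM in such cells in the KO-labelled library (18084 to 18673) and to 19484 CPM in cells with Xist UMIs (19345 to 19623). Of 8 measured class II genes, 0 passed the limit between the 2 kinds of cell of the KO-labelled library (median log2 ratio 0.13). H2-Aa stood at 1281, 2841 and 2799 CPM in the 3 sets. Il1b stood at 184, 408 and 769 CPM, and C3 at 29.9, 39.2 and 116 CPM.

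**Figure D5:**
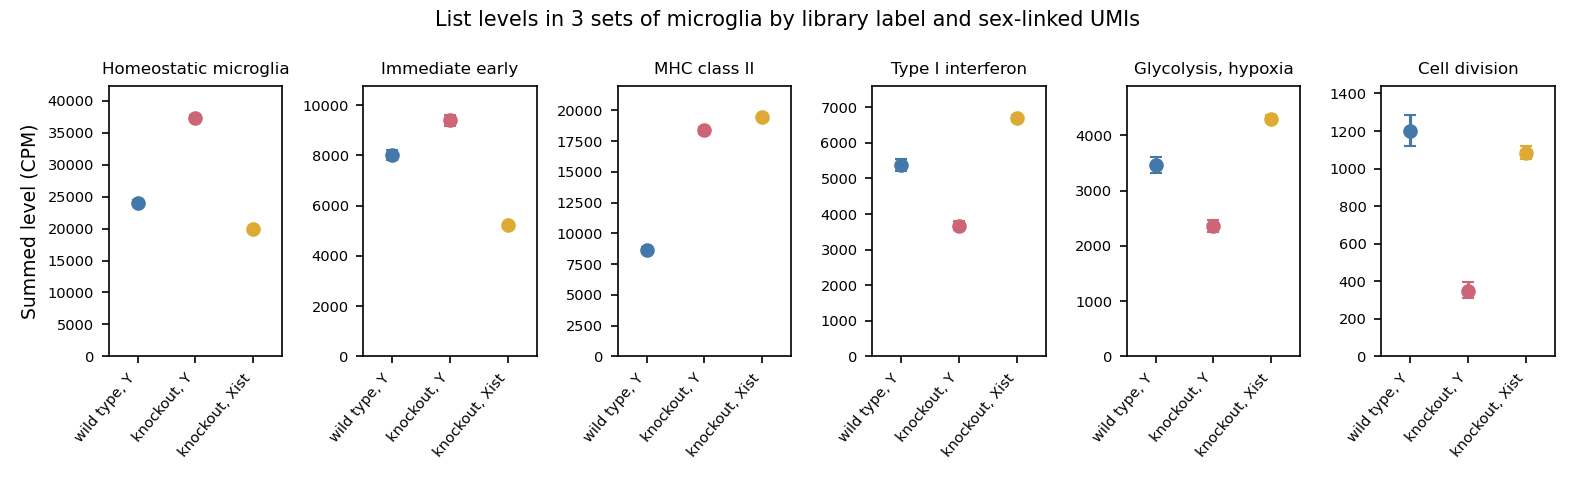
Summed level in CPM (vertical axes, linear from 0) of 6 gene lists in marker-clean microglia with Y-linked UMIs in the WT-labelled library (blue, 64 cells), with Y-linked UMIs in the KO-labelled library (red, 85 cells) and with Xist UMIs in the KO-labelled library (yellow, 242 cells), with exact Poisson 95% intervals. MHC class II stands at 8656, 18377 and 19484 CPM, and the homeostatic genes stand at 24064, 37350 and 20002 CPM.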

How the data were processed

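Single cells of dissociated brain were profiled with the 10x Genomics 3′ v3.1 chemistry, per the labels' protocols. The deposited matrices hold counts, whole numbers of UMIs per gene and barcode over a combined human and mouse gene table, and they were used as the authors deposited them. Cell Ranger 7.1.0 and Seurat 5.0.2 are named in the submitters' processing notes without their roles, and mm10 is the build of the mouse genes. The analysis ran in scanpy 1.11.5 with scipy 1.17.1, pandas 2.3.3 and numpy 2.4.6 under Python 3.11.15, on the 32285 mouse genes.

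Cells were kept with 500 or more genes and at most 10% mitochondrial UMIs. Microglia had 3 or more UMIs of Tmem119, P2ry12 and Sall1, at most 1 of Ccr9 and Klk1, fewer than 5 of Mmp12, Adamdec1, H2-M2 and Ccl24, fewer than 2 of Ly6c2, at most 1 of Cd3e and Cd3d, and at most 1 of Sox2 and Met. In order, these clauses took 3110 kept cells to 258, 252, 176, 167, 166 and 102 in the WT-labelled library, and 6575 to 641, 607, 521, 476, 465 and 434 in the KO-labelled library.

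UMIs were summed over cells per library and scaled to 1e6 mouse UMIs of the same cells. Ratios carry the exact conditional 95% interval, shares the exact Clopper-Pearson interval, and a count of 0 is replaced by a floor of 3 counts. Intervals and floors cover counting error only. Tested on simulated data with 200 of 7913 genes changed 2-fold, the intervals held the true ratio in 95.6% of genes, and 2.72% of unchanged genes passed 1.5-fold. The simulated sums were independent Poisson draws, the model that the intervals assume. They check the calculation and leave out the clustering of UMIs in few cells, so 2.72% is not a rate for the real data. Doublets were called with Scrublet in scanpy. In the WT-labelled library its automatic threshold marked 0.289% of cells, so the 77 cells with the highest scores, the number expected, were taken instead. Members called were 1 and 5, and they were kept in the main values.

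Named genes were the 3 rule genes, Cx3cr1, Cacna1h, the 12 highest and 12 lowest by the interval bound nearest to no difference (50 CPM or more, and at least 20% of the level in any other population of 50 or more cells), up to 4 of the most counted and 4 of the most different of each list, and 10 genes highest against the other macrophages. Some further list members past the limit were named after their values were seen, as were the genes lowest against the other macrophages and those described along Apoe or in the 3 sets of cells. The members, the gene lists and the tests were chosen with earlier results of these data known. Alternatives are given in the closing section.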

Additional observations from a re-analysis of the deposited data

Results flagged for a closer look

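UMIs assigned to human genes appeared in the microglia, although the tissue and the tumour line are of mouse: 169 UMIs in the WT-labelled library and 1089 in the KO-labelled library. They made up 0.0134% and 0.0167% of all UMIs of these cells and entered no comparison above.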

How the results depend on the processing

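No paired analysis was possible because each group holds 1 library. The ratio of the microglial shares, 2.01, was 2.68 in cells with Y-linked but without Xist UMIs and 1.32 with the Sox2 and Met clause left out. The counts of genes at least 1.5-fold higher and lower, 394 and 501, were 876 and 1199 with a minimum of 30 UMIs per gene, 134 and 136 with 300, 187 and 111 with members thinned to 3000 UMIs, and 2399 and 3071 with the Sox2 and Met clause left out. The cause was not tested, other than that the minimum of UMIs and the thinning change how many genes are measured. Leaving out members with macrophage markers and the Sox2 and Met clause were alternatives chosen after seeing the data. Reversed log2 ratios were those of Fn1 (-0.39) and Xdh (-0.29) over all members with Y-linked UMIs. Without the Sox2 and Met clause those of Colec12 (0.33) and F11r (0.090) reversed. The median of the oligodendrocyte markers reversed (-0.11) with 2 rule UMIs as the limit. The tumour macrophage median reversed with border macrophages left out (0.47), without the Sox2 and Met clause (0.47) and at 30 UMIs per gene (0.33). Over all alternatives, 250 of 305 list medians and 321 of 325 ratios of named genes kept their sign. The values just listed are the 4 medians and 4 ratios counted as reversed. A further 56 medians and 87 ratios were counted as moved, and 245 and 234 as the same. Some medians changed sign without being counted as reversed, such as the homeostatic median, 0.07 over all members and -0.15 in marker-clean microglia. Depth limits genes under 100 UMIs, Cacna1h among them, and the 102 cells in the WT-labelled library set the width of most intervals.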

Other observations

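Of the 24 genes named for the widest differences between the libraries, 6 lie within one stretch of chromosome 1, chr1:171437535-173982744 (mm10, GENCODE M21 annotation): F11r, Slamf7, Slamf8, Ifi206, Ifi213 and Ifi202b. Of 27 measured genes in that stretch, 5 were at least 1.5-fold higher and 5 lower in the KO-labelled library, 37.0% against 11.3% of all measured genes. In marker-clean microglia it was 40.0% against 11.6%. The stretch was singled out after its values were seen. Its ends were set by these 6 named genes, which count among the 5 higher and 5 lower over all members, so the share is no test. In cells with Y-linked UMIs in the WT-labelled library, with Y-linked UMIs in the KO-labelled library and with Xist UMIs in the KO-labelled library, Ifi213 stood at 104, 6.13 and 2.58 CPM and Ifi202b at 0, 45.3 and 198 CPM.

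Cacna1h and most of the MHC class II genes lie on chromosome 17, with H2-Aa 8.91 megabases from Cacna1h. Of 177 measured genes within 10 megabases of Cacna1h, 13 were at least 1.5-fold higher and 10 lower, and in marker-clean microglia 15.2% of the genes there passed the limit, against 11.6% of all measured genes. Cd74 and Ciita, which differed in the same direction as the class II genes of that region, lie on chromosomes 18 and 16.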
